A study of Mus musculus with 48 samples.

Results

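The genes described here encode the proteins of the cytosolic ribosome. They were chosen by symbol, as Rpl or Rps followed by a number and at most one further letter (a, l or x), together with Rplp0, Rplp1, Rplp2 and Rpsa. Of the 54735 genes in the count files, 83 had such a symbol. A total of at least 50 counts over the 24 RNA-seq libraries was then required, which left 78 genes, 46 of the large subunit and 32 of the small. The 5 genes below that minimum were Rpl10l with 1 count in all, Rpl39l with 2, Rpl32l with 17, Rpl3l with 28 and Rpl6l with 34. Rps4l, which the symbol rule admitted, is annotated as a transcribed processed pseudogene.

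Each cytosolic ribosome is built from ribosomal RNA and a fixed set of ribosomal proteins. The small subunit reads the messenger RNA and the large subunit joins the amino acids, and elongation factors are recruited by a stalk of acidic P proteins. Nearly all of these messenger RNAs begin with a run of pyrimidines, the 5′ terminal oligopyrimidine (TOP) tract, through which the kinase mTOR and the protein LARP1 control their stability and translation. Red pulp macrophages (RPMs) clear aged red blood cells in the spleen and recycle the iron of their heme.

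The RNA-seq libraries came from 3 cell populations sorted out of the spleens of male Balb/c mice aged 10 weeks, 4 wild-type (WT) and 4 Il1rl1-/- (IL1RL1-/- in the labels). Il1rl1 encodes ST2, the receptor for IL-33. Sorting was by surface staining: monocytes were Ly6Glo CD11bhi F4/80-, pre-RPMs were Ly6Glo CD11bhi F4/80lo, and RPMs were Ly6Glo CD11blo/- F4/80hi, with 1 library per mouse and population and so 4 per group. The series also lists 24 chromatin accessibility samples, which were not analysed here. The design asks how a gene's level differs along the path from monocyte to RPM, and whether it differs with the IL-33 receptor.

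The libraries held 3562367 to 6559454 counts. Gm42418, a gene model that overlaps a ribosomal RNA repeat, took 24.4% to 38.8% of them. Markers set WT RPMs apart from WT pre-RPMs. The summed level of 8 RPM markers was 4964 to 6521 CPM in WT RPMs and 99.3 to 240 in WT pre-RPMs. That of 5 monocyte markers was 942 to 1151 in WT pre-RPMs and 14.8 to 55.8 in WT RPMs. The monocyte markers did not set monocytes apart from pre-RPMs. They summed to 474 to 1006 CPM in WT monocytes, and in Il1rl1-/- to 623 to 1126 in monocytes and 1008 to 1228 in pre-RPMs. The RPM markers were lower in WT monocytes (median 47.96 CPM) than in WT pre-RPMs (median 130.4). CPM, the usual depth-scaled read count, here used library totals after TMM scaling. Markers of other cell types were also counted. Hemoglobin transcripts took 0.0848% to 1.75% of counts in RPM libraries and at most 0.0429% in the others, and the summed level of 6 erythroid markers was 817 to 23678 CPM in RPM libraries and at most 617 in the others. In monocyte libraries 5 NK cell markers summed to 425 to 1619 CPM against 10.3 to 125 in pre-RPMs, 5 neutrophil markers to 226 to 667 against 99.0 to 209, and 3 plasma cell markers to 331 to 1714 against 42.1 to 340. The 4 eosinophil markers summed to 275 to 400 CPM in RPMs and 33.5 to 71.0 in pre-RPMs, nearly all of it Ccr3, while the granule gene Epx had at most 3 counts in any RPM library. Basophil and mast cell, T cell, B cell and dendritic cell markers each summed to at most 80.8 CPM in any library. Their part in the results below was not tested.

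Il1rl1 did not follow the labels in every population. In monocytes it had 12 to 28 counts in libraries labelled WT and 51 to 73 in libraries labelled Il1rl1-/-, a log2 difference of 2.13 ± 0.23 (SE; adjusted p = 0.00882, edgeR quasi-likelihood test). Pre-RPMs labelled WT had 13 to 24 counts and those labelled Il1rl1-/- had 42 to 76 (log2 difference 1.52 ± 0.20, adjusted p = 0.00107). RPMs had 5 to 13 counts under the WT label and 1 to 7 under the other. The counts cover the whole gene, and the exons they came from are not given. Genotype is therefore stated throughout as the libraries are labelled.

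The starts of the genes were read from RefSeq (GRCm38.p6), which had promoter sequence for 57 of the 78 genes, in 68 windows. The 6 windows below belong to genes whose values are described further on and were picked because they hold a pyrimidine run at the start. Not every gene has one: Rplp0, Rpl5, Rpl10, Rpl11, Rpsa and Rps19, also described further on, had no run of at least 6 pyrimidines there, and neither did the other two windows of Rpl35a. Each runs 5′ to 3′ from 40 bases before the annotated start to 20 bases after, with the longest pyrimidine run at or beside the start in capitals.
Rplp2 (chr7:141447611-141447670, plus strand): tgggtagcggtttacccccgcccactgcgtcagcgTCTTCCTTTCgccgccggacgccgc
Rpl34 (chr3:130730318-130730377, minus strand): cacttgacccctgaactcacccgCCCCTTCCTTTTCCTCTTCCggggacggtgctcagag
Rpl18 (chr7:45718031-45718090, plus strand): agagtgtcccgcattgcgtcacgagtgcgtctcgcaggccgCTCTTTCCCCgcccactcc
Rps9 (chr7:3704001-3704060, plus strand): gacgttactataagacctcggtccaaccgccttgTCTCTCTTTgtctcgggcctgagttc
Rps6 (chr4:86857348-86857407, minus strand): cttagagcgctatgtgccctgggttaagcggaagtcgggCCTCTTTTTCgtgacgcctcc
Rpl35a (chr16:33056442-33056501, plus strand): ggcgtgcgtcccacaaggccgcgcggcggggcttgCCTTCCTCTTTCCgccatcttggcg

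A run of at least 6 pyrimidines lay at the annotated start or within 4 bases of it in 30 of the 57 genes (52.6%), against 24% of all 27025 genes with promoter sequence. A C followed by 4 pyrimidines stood exactly at the start in 13 (22.8%), against 3.01% of all genes. Other sequence features were searched on both strands of the 300-base window from 250 bases before the start to 50 after. The 7 letters CCGGAAG, the core of sites for ETS-family factors, occurred in 24 of 57 (42.1%) and in 9.93% of all genes, and CTCGCGAG, the core of the ZBTB33 palindrome, in 7 (12.3%) against 1.04%. The cAMP response element TGACGTCA was in 5 (8.77%) against 2.03%, the YY1 letters AAGATGGC in 5 (8.77%) against 3.19%, the SP1 box GGGCGG in 35 (61.4%) against 38.2%, and the pyrimidine stretch CTTTCC in 30 (52.6%) against 29.3%. The MYC E-box CACGTG was found in 6 genes (10.5%, against 8.09%) and the TATA box TATAAA in 6 (10.5%, against 15.7%). These are letter matches only. Genes with CCGGAAG had a median log2 change from pre-RPM to RPM of −0.67 in WT and −0.46 in Il1rl1-/-, and genes without it −0.73 and −0.57. Over all 8 motifs the median of the genes with a motif ranged in WT from −0.87 (TGACGTCA, 5 genes) to −0.46 (TATAAA, 6 genes) and in Il1rl1-/- from −0.81 to −0.28 for the same motifs, while that of the genes without ranged from −0.73 to −0.67 and from −0.57 to −0.50. These differences were not tested.

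The 78 genes spanned a wide range of levels. Counts were divided by the length of each gene's merged exons, and the mean over the 24 libraries was taken. On this scale, CPM per kb, the median gene stood at 42.6 and the 90th percentile was 14.0 times the 10th. Rplp1, an acidic protein of the stalk, was highest at 570.6 CPM per kb, 13.4 times the median gene. Rps6, the substrate of the S6 kinases, followed at 291, and then the large subunit genes Rpl36 at 211, Rpl8 at 196 and Rpl17 at 184. The lowest levels were those of the pseudogene Rps4l at 1.48, Rps10 at 2.00, Rpl24 at 2.37, Rpl13a at 4.95 and Rpl35a at 6.82 CPM per kb. These ranks rest on the merged exon length. With the length of 1 annotated transcript (77 genes) the highest value was 593.5 CPM per kb and the median 105.8. Rplp1, at 499 bases by either length, was then not the highest. Rpl35a has 3526 bases of merged exons and a transcript of 491, so its low place depends on the length used. Exon bases shared with another gene on the same strand, whose fragments the counting leaves out, made up 47.0% of Rpl24, 35.4% of Rpl13a and 20.6% of Rps10. The plot of levels by rank shows that these few low genes stand off from an otherwise even slope.

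**Figure D1:**
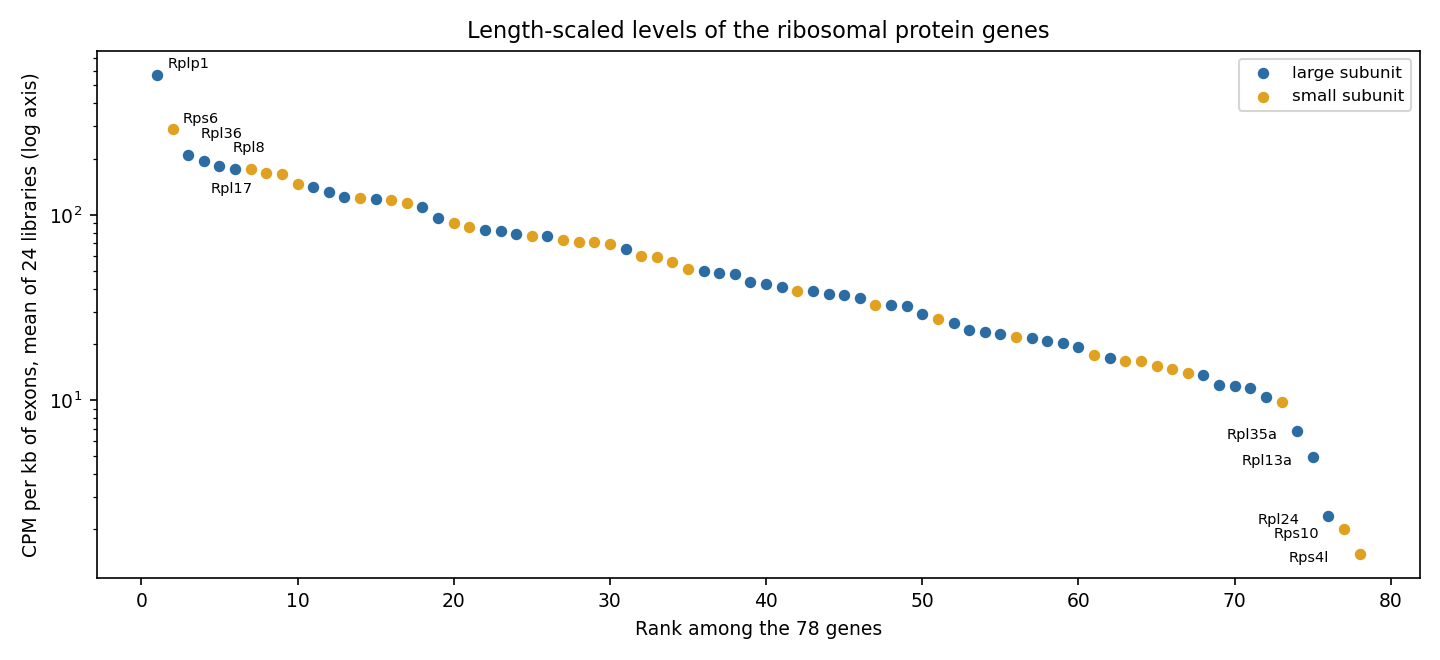
Mean length-scaled level (CPM per kb of exons, 24 libraries, log axis) of the 78 ribosomal protein genes in order of rank, large subunit in blue and small subunit in orange. Rplp1 leads at 570.6 CPM per kb and the 5 lowest genes are at 6.82 or less.

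Many of these genes have copies elsewhere in the genome, and fragments that map to several places were not counted. For 77 genes with a transcript in the annotation, a median of 62.0% of the transcript's 50-base words also occurred elsewhere in the genome, and the share was highest for Rps27, at 99.7%. Across the 77 genes the length-scaled level had a Spearman correlation of −0.02 with that share (genes of the same 24 libraries). The 298 annotated ribosomal protein pseudogenes together drew 388 to 851 counts per library. That was 1.19% to 1.63% of the counts of the 78 genes and the pseudogenes combined, and the group ranges overlapped.

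From pre-RPM to RPM most ribosomal protein genes fell. In WT mice 62 of the 76 genes tested were lower in RPMs and 1 was higher at an adjusted p below 0.05 (edgeR quasi-likelihood test, Benjamini-Hochberg over all genes), where 24.8% of all 11239 genes tested were lower and 25.6% higher. The median change of the 76 was −0.68 on the log2 scale, with an interquartile range of −0.83 to −0.48, and that of all genes was 0.00. In 57 of the 76 all 4 RPM libraries were below all 4 pre-RPM libraries, which held for 20.9% of all genes. The study's own threshold for cell types was an adjusted p below 0.01 and a log2 change beyond 1. On the low side 10 of the 76 genes met it (13.2%), near the 10.7% of all genes. Among them were Rpl18, Rpl34, Rpl37, Rplp0, Rps7, Rps9 and Rps27a. In bulk libraries, fewer cells of a type and less RNA per cell cannot be told apart.

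At an adjusted p below 0.05 libraries labelled Il1rl1-/- gave a similar picture. There 59 of 78 genes were lower in RPMs and 4 higher, against 26.7% and 27.3% of all genes, and the median was −0.52. All RPM libraries lay below all pre-RPM libraries in 43 genes, against 22.3% of all genes. The study's threshold for cell types was met on the low side by 2 of the 78 genes (2.56%). That was a smaller share than among all genes, where 1315 of 11437 met it. On the high side 1 of the 78 met it, and 1658 of all genes. The 1 was Rps4l, which passed the filter on low counts through the RPM libraries alone. Of the genes called lower, 57 were shared, 91.9% of the WT list and 96.6% of the Il1rl1-/- list. Rpl14, Rpl30, Rpl31, Rps20 and Rps21 were called in WT alone, and Rpl29 and Rps29 in Il1rl1-/- alone. With the mouse as a block Rpl29 and Rps29 also passed in WT (adjusted p = 0.0332 and 0.0385) and Rpl31 in Il1rl1-/- (adjusted p = 0.0252). Scaled by total counts alone, which puts the median of all genes at 0.22 in WT and 0.08 in Il1rl1-/-, 40 genes were lower and 2 higher in WT and 43 and 3 in Il1rl1-/-. Over the 76 genes tested in both genotypes, which are not independent and come from the same libraries within a genotype, the changes had a Pearson correlation of 0.89 and a Spearman correlation of 0.87.

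**Figure D2:**
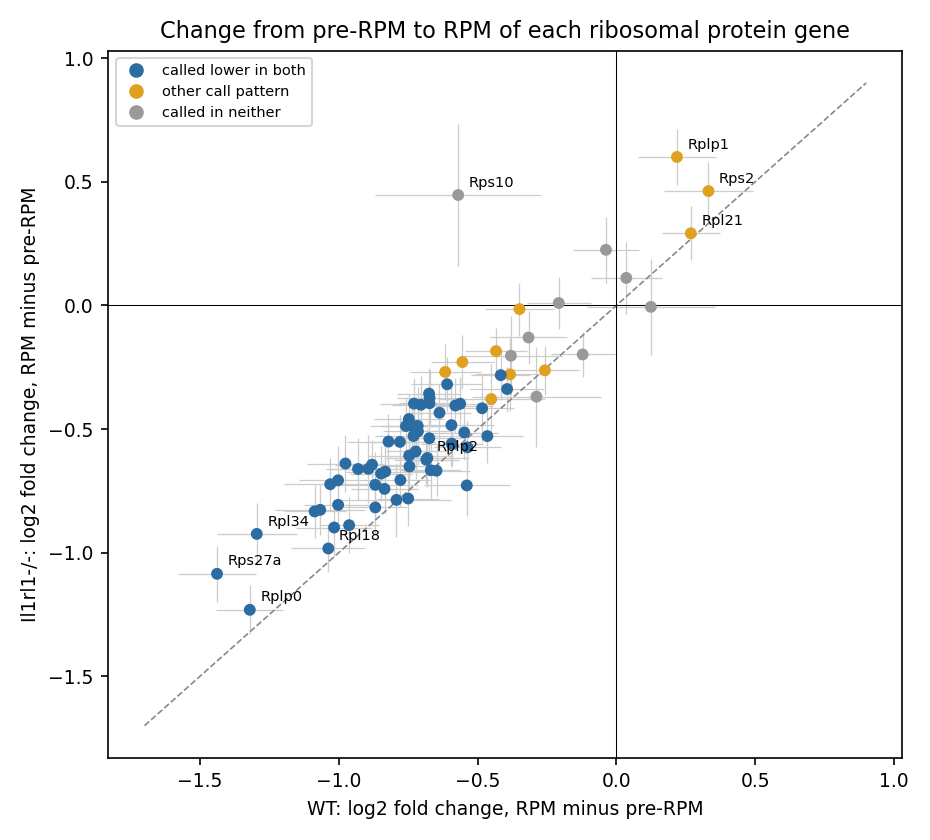
Log2 fold change from pre-RPM to RPM of each gene tested in both genotypes, WT on the horizontal axis and Il1rl1-/- as labelled on the vertical axis, bars showing the standard error and the dashed line equal changes. The 57 genes called lower in both genotypes (blue) lie in the lower left, and Rplp1, Rps2 and Rpl21 lie above 0 on both axes.

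The same shift was seen in the share of the library that these genes took. With Gm42418 left out of the total, the 78 genes held 1.36% to 1.53% of counts in WT monocytes, 1.35% to 1.46% in WT pre-RPMs, and 1.07%, 1.04%, 0.816% and 0.855% in the 4 WT RPM libraries. Libraries labelled Il1rl1-/- held 1.2% to 1.43%, 1.17% to 1.52%, and 1.12%, 0.993%, 0.905% and 0.914%. On this scale every RPM library was below every pre-RPM and monocyte library. Of all counts, Gm42418 included, the mean share in RPMs was 73.1% of that in pre-RPMs in WT and 74.3% in Il1rl1-/-. There WT RPMs, at 0.530% to 0.792%, were below WT pre-RPMs, at 0.841% to 0.991%. The Il1rl1-/- groups overlapped, with 0.616% to 0.810% in RPMs, 0.790% to 1.15% in pre-RPMs and 0.794% to 0.992% in monocytes.

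**Figure D3:**
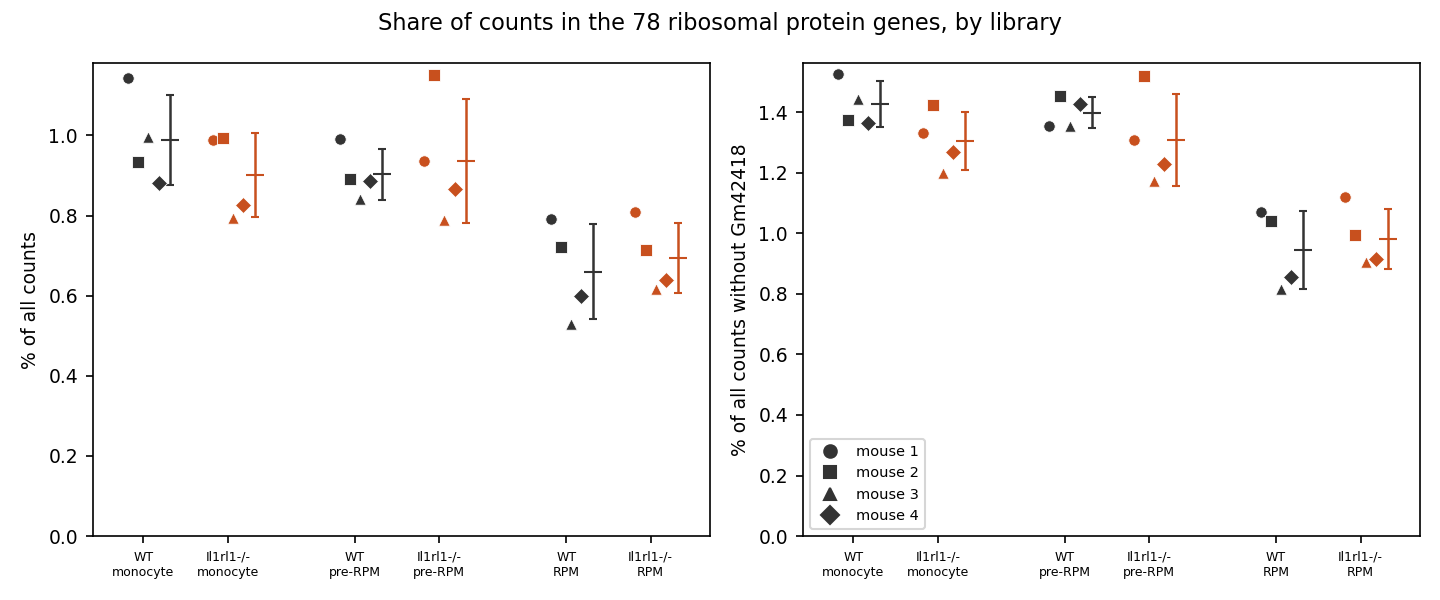
Share of counts in the 78 genes per library, of all counts (left) and without Gm42418 (right), by group, with a symbol per mouse and bars for the mean ± SD of 4. Without Gm42418 all 8 RPM libraries lie at or below 1.12% and all other libraries at or above 1.17%.

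The RPM libraries of mice 3 and 4 had lower shares than those of mice 1 and 2 in both genotypes, and more hemoglobin. Hemoglobin transcripts took 0.187%, 0.110%, 1.75% and 0.884% of counts in WT RPMs of mice 1 to 4 and 0.253%, 0.0848%, 0.946% and 1.36% in Il1rl1-/- RPMs. Without mice 3 and 4 of the RPM groups, a choice made after seeing the data, 58 genes were lower and 0 higher in WT with a median of −0.62. In Il1rl1-/- 52 were lower and 3 higher, with a median of −0.49.

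Large and small subunit genes moved alike. In WT 36 of 45 large subunit genes were lower, with a median of −0.67, and 26 of 31 small subunit genes, with a median of −0.71. In Il1rl1-/- the counts were 34 of 46 (median −0.50) and 25 of 32 (median −0.53). Small subunit genes took 44.4% to 49.1% of the counts of the 78 genes in every library. Among the 49 tested genes with over 50% of their 50-base words elsewhere the median WT change was −0.67, and among the other 27 with a transcript it was −0.68.

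The 3 genes of the P stalk, which recruits elongation factors to the large subunit, did not all fall: Rplp0 and Rplp2 fell in both genotypes, and Rplp1 rose in Il1rl1-/- and did not pass in WT. Rplp0 (chr5:115559467-115563727, plus strand), the base of the stalk, stood at 262.0, 258.7, 277.1 and 217.4 CPM in WT pre-RPMs of mice 1 to 4 and at 112.5, 104.1, 109.4 and 93.7 in WT RPMs. In libraries labelled Il1rl1-/- it stood at 250.9, 250.5, 222.2 and 204.9 in pre-RPMs and at 110.3, 95.4, 103.9 and 101.8 in RPMs. The groups were far apart, and Rplp0 fell by 1.32 ± 0.12 in WT (adjusted p = 4.72e-07) and by 1.23 ± 0.10 in Il1rl1-/- (adjusted p = 4.65e-08) on the log2 scale.

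Rplp2 (chr7:141447370-141451585, plus strand), whose start is printed above, had 329.7, 352.3, 314.5 and 317.8 CPM in WT pre-RPMs and 233.8, 222.2, 200.6 and 187.8 in WT RPMs. It fell by 0.68 ± 0.12 in WT (adjusted p = 0.000229) and by 0.62 ± 0.10 in Il1rl1-/- (adjusted p = 5.63e-05). Its partner Rplp1 (chr9:61913284-61914542, minus strand) had 267.6, 273.0, 334.9 and 245.4 CPM in WT pre-RPMs and 400.3, 354.1, 295.3 and 296.6 in WT RPMs, and these groups overlapped. Pre-RPMs labelled Il1rl1-/- had 224.5, 254.1, 231.5 and 189.0 CPM of Rplp1, all below the 396.7, 337.0, 376.0 and 308.2 of the RPMs. Its change was 0.22 ± 0.14 in WT (adjusted p = 0.218), and it rose by 0.60 ± 0.11 in Il1rl1-/- (adjusted p = 0.000346). The difference between the genotypes in that change, 0.40 ± 0.18, did not pass (adjusted p = 0.644).

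Within a library the ratio of these neighbours does not depend on library scaling. For every 100 counts of Rplp0, WT monocytes had 138 ± 29.1 counts of Rplp1, WT pre-RPMs 110 ± 8.32 and WT RPMs 321 ± 37.5 (SD, n = 4). Libraries labelled Il1rl1-/- had 120 ± 22, 96.8 ± 7.07 and 344 ± 28. The RPM ratios thus lay far outside the spread of the other groups in both genotypes, as the panels by library for Rplp0 and Rplp1 also show.

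**Figure D4:**
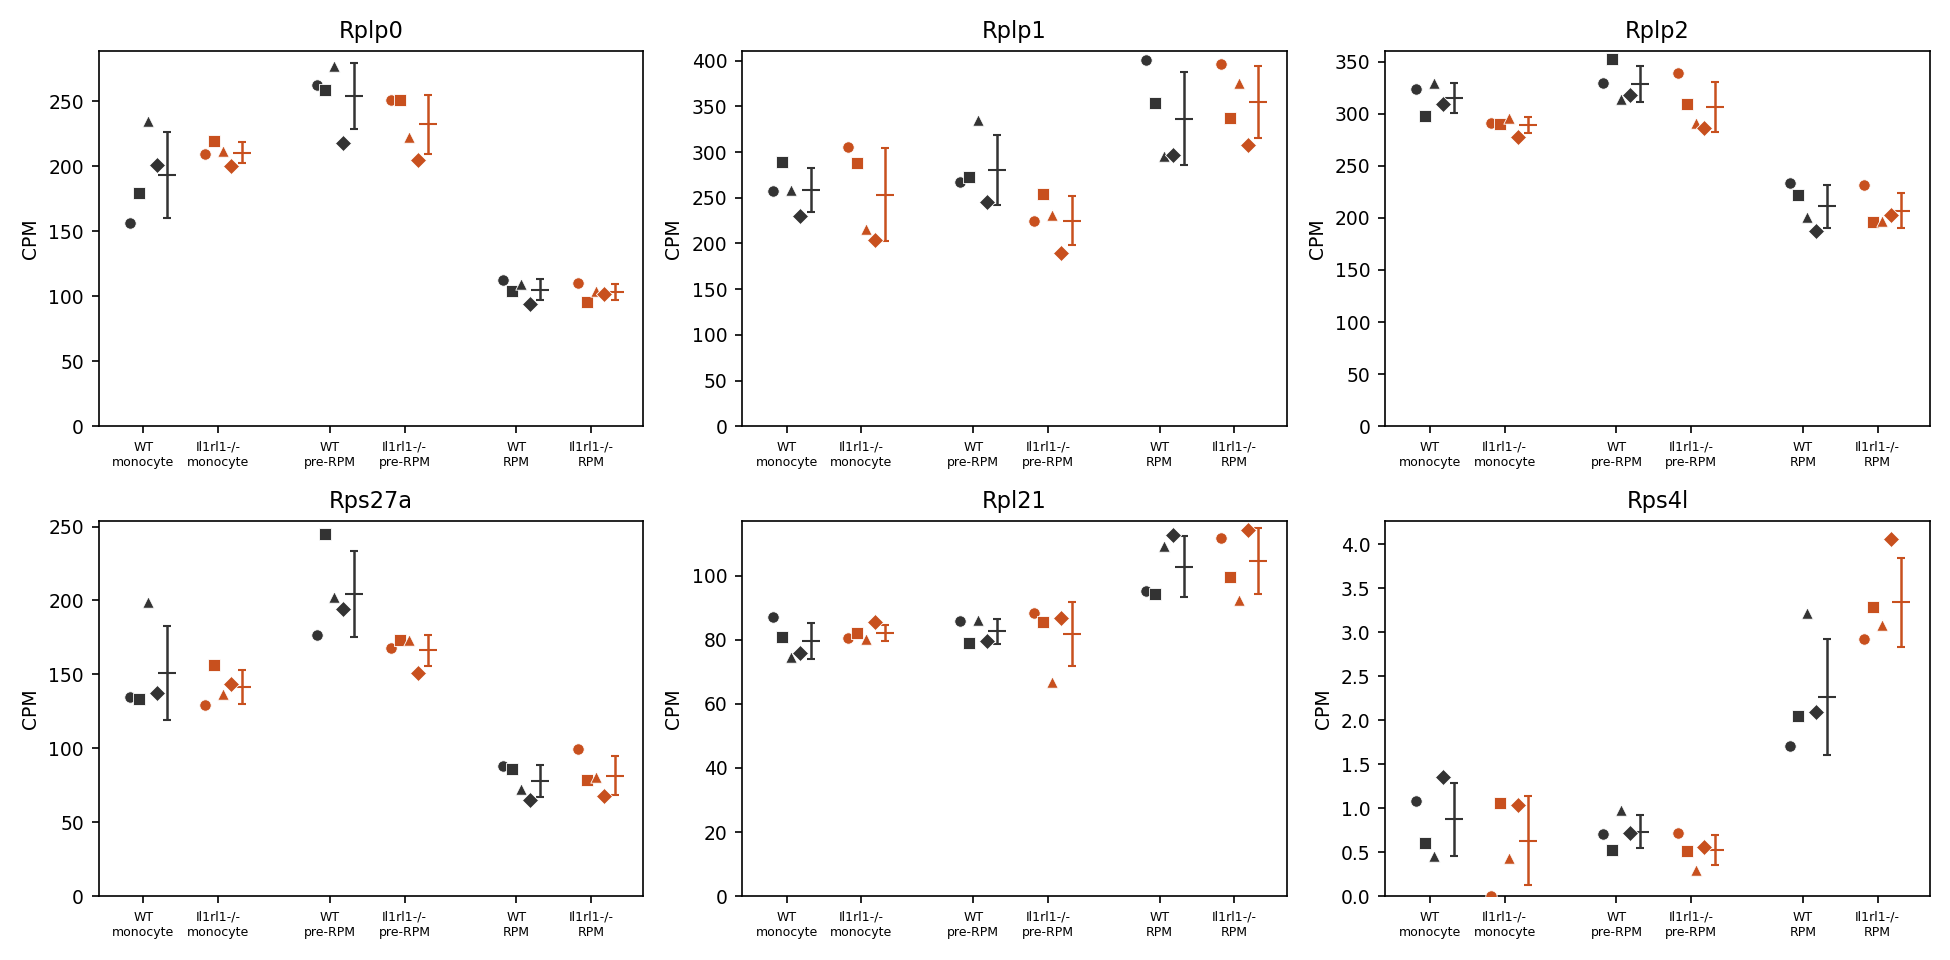
CPM by library of Rplp0, Rplp1, Rplp2, Rps27a, Rpl21 and Rps4l in the 6 groups, WT in black and Il1rl1-/- as labelled in orange, a symbol per mouse (circle 1, square 2, triangle 3, diamond 4) and bars for the mean ± SD of 4. Rplp0, Rplp2 and Rps27a are lowest in RPMs, whereas Rpl21 and Rps4l are highest there.

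Rps27a (chr11:29545846-29548109, minus strand), which is made as a fusion of ubiquitin to a small subunit protein, had the greatest fall of the 76 genes tested in WT. It stood at 176.5, 245.0, 202.6 and 194.0 CPM in WT pre-RPMs and at 87.9, 85.9, 72.7 and 65.2 in WT RPMs, and at 167.8, 173.0, 173.2 and 150.8 against 99.3, 78.5, 80.6 and 67.6 in libraries labelled Il1rl1-/-. No RPM library reached the lowest pre-RPM library. It fell by 1.44 ± 0.14 in WT (adjusted p = 8.88e-07) and by 1.09 ± 0.11 in Il1rl1-/- (adjusted p = 8.24e-07).

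Rpl34 (chr3:130726831-130730398, minus strand), a large subunit protein with the longest pyrimidine run of the windows above, had 170.2, 212.4, 154.2 and 193.8 CPM in WT pre-RPMs and 87.9, 87.1, 65.4 and 66.8 in WT RPMs. It fell by 1.30 ± 0.14 in WT (adjusted p = 3.47e-06) and by 0.92 ± 0.13 in Il1rl1-/- (adjusted p = 1.5e-05). Rpl18 (chr7:45715457-45720836, plus strand), also of the large subunit, had 85.0, 88.6, 84.2 and 75.4 CPM in pre-RPMs labelled Il1rl1-/- and 49.5, 41.9, 41.8 and 42.1 in the RPMs, and fell by 0.98 ± 0.09 (adjusted p = 3.69e-07). In WT it fell by 1.04 ± 0.13 (adjusted p = 1.47e-05). For both genes every RPM library lay below every pre-RPM library of its genotype.

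Members known for roles outside the ribosome or in disease, picked singly and not as a list, did not all pass. Rpl5 and Rpl11, which with 5S ribosomal RNA bind the p53 ligase MDM2, fell by 0.56 and 0.67 in WT (adjusted p = 0.00148 and 0.000139) and by 0.40 and 0.40 in Il1rl1-/- (adjusted p = 0.00514 and 0.00154). Rps14, whose loss underlies the anemia of the 5q- syndrome, fell by 1.07 in WT and by 0.83 in Il1rl1-/- (adjusted p = 7.3e-05 and 5.49e-06). Rpsa, also known as the laminin receptor, stood at 324.5, 330.7, 326.8 and 306.1 CPM in WT pre-RPMs and at 232.9, 215.9, 200.6 and 184.3 in WT RPMs, and fell by 0.67 ± 0.12 (adjusted p = 0.000228; Il1rl1-/-, fell by 0.54 ± 0.12, adjusted p = 0.00115). Rpl10, which joins the large subunit late in its assembly, fell by 0.75 in WT and 0.78 in Il1rl1-/- (adjusted p = 6.48e-05 and 1.97e-05). Of the Diamond-Blackfan anemia genes, Rpl15 had changes of −0.21 in WT (adjusted p = 0.152) and 0.01 in Il1rl1-/- (adjusted p = 0.947), and Rps29 had −0.26 in WT (adjusted p = 0.0956) and fell by 0.26 in Il1rl1-/- (adjusted p = 0.0353). Rps10, also such a gene, and the p53-responsive Rps27l passed in neither genotype, with values given further on.

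Rps6 was the most uneven of the highly counted genes. It ranged from 182.6 to 573.1 CPM in WT monocytes, from 433.7 to 621.6 in WT pre-RPMs and from 334.2 to 447.7 in WT RPMs, so the neighbouring groups overlapped. It fell by 0.59 ± 0.15 in WT (adjusted p = 0.00485) and by 0.48 ± 0.17 in Il1rl1-/- (adjusted p = 0.026). With a total count scaling or with all 24 libraries in a single fit neither genotype's change passed, and the Il1rl1-/- call was also lost without RPM 4, pre-RPM 1 or pre-RPM 2 and without mice 3 and 4 of the RPM groups.

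A few genes went against the rest. Rpl21 (chr5:146832890-146837032, plus strand), a large subunit gene, had 85.9, 79.0, 86.1 and 79.6 CPM in WT pre-RPMs and 95.3, 94.3, 109.2 and 112.7 in WT RPMs, with no overlap. It rose by 0.27 ± 0.10 in WT (adjusted p = 0.0464) and by 0.29 ± 0.11 in Il1rl1-/- (adjusted p = 0.0348). The WT call was lost with DESeq2, with RLE size factors, with every gene of at least 1 count tested and without RPM 3 or 4 or any one pre-RPM library, and the Il1rl1-/- call with total counts and without RPM 1 or 4 or pre-RPM 2 or 3. Neither call held without mice 3 and 4 of the RPM groups. Rps2, a small subunit protein at the messenger RNA entry channel, had 24, 25, 23.3 and 18.9 CPM in pre-RPMs labelled Il1rl1-/- and 36.5, 28.7, 31.5 and 34.2 in the RPMs, and rose by 0.46 ± 0.12 (adjusted p = 0.00408). Its WT change was 0.33 (adjusted p = 0.0993).

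Rps4l (chr6:148354656-148355598, plus strand), the processed copy of Rps4x, was near the limit of counting outside RPMs, where 3 counts correspond to 0.457 to 0.842 CPM over all libraries. In libraries labelled Il1rl1-/- it had 0.71, 0.51, 0.30 and 0.56 CPM in pre-RPMs, which is 3, 3, 1 and 3 counts, and 2.93, 3.28, 3.08 and 4.06 in RPMs, which is 13, 20, 14 and 19 counts. It is 1 of the 4 genes counted as higher above, but it passed the filter on low counts through the RPM libraries alone, so no fold change is given. WT pre-RPMs had 0.70, 0.53, 0.98 and 0.72 CPM and WT RPMs 1.70, 2.04, 3.22 and 2.09. It was too low for the WT test. Its parent Rps4x fell by 0.72 in WT and 0.59 in Il1rl1-/- (adjusted p = 6.2e-05 and 0.000372).

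The remaining pairs of related genes were also compared. Rps27 fell by 0.88 in WT (adjusted p = 8e-05) and by 0.64 in Il1rl1-/- (adjusted p = 6.07e-05). Rps27l, a p53-responsive relative, had changes of −0.29 (adjusted p = 0.328) and −0.37 (adjusted p = 0.138). Rpl22 fell by 0.67 and 0.36 (adjusted p = 0.000217 and 0.00957), while Rpl22l1, which lies outside the symbol rule, had changes of 0.43 and 0.39 (adjusted p = 0.0653 and 0.0529). Rpl7 fell by 0.78 and 0.71 (adjusted p = 3.06e-05 and 4.92e-05) and its relative Rpl7l1 fell by 0.41 in WT (adjusted p = 0.00407), with −0.20 in Il1rl1-/- (adjusted p = 0.178). Rpl36a, at 0.04 and 0.11, and Rpl39, at −0.38 in WT, did not pass. Rpl3 fell by 0.59 in WT and 0.56 in Il1rl1-/- (adjusted p = 0.000466 and 9.52e-05), and its muscle relative Rpl3l had too few counts to be kept.

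In all, 13 of the 76 tested genes were not called in WT. They were Rpl12, Rpl13a, Rpl15, Rpl23, Rpl29, Rpl36a, Rpl39, Rplp1, Rps2, Rps10, Rps12, Rps27l and Rps29, with changes between −0.57 and 0.33. Rps10 had the lowest value of these, −0.57 (adjusted p = 0.129), and 0.45 in Il1rl1-/- (adjusted p = 0.205), at 2.77 to 6.49 CPM in WT RPMs. Rpl24 and Rps4l were too low to be tested in WT. Across the 76 genes the WT change had a Spearman correlation of −0.27 with the mean level.

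From monocyte to pre-RPM the genes changed little. In WT 4 of 77 genes rose and 0 fell, where 5.79% of all genes rose and 8.85% fell, and the median was 0.19 against 0.01 for all genes. Scaled by total counts alone the median of the 77 was −0.17 and that of all genes −0.36, so the direction flips while the distance from all genes stays at 0.19, and 0 genes were called. The 4 called genes were Rpl35a, Rps9, Rpl34 and Rps19. With the mouse as a block, Rpl34 and Rps19 no longer passed (adjusted p = 0.0534 and 0.06), Rpl35a and Rps9 kept their calls, and Rpl37 was called (0.43, adjusted p = 0.0347). Without WT monocyte 3 the count was 13, and it was 1 without WT monocyte 1, 2 or 4 or without WT pre-RPM 1, 2 or 4; Rpl35a kept its call each time. Libraries labelled Il1rl1-/- gave 1 higher and 0 lower of 77, against 8.24% and 8.83% of all genes, with a median of 0.05. With mouse as a block the count was 2, Rps9 and Rpl7a.

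Rpl35a, one of the Diamond-Blackfan anemia genes, had 17.4, 23.1, 23.3 and 22.7 CPM in WT monocytes and 29.9, 37.2, 33.2 and 33.2 in WT pre-RPMs. It rose by 0.63 ± 0.14 (adjusted p = 0.0133), and its change in Il1rl1-/- was 0.09 (adjusted p = 0.731). Rps9, another protein of the messenger RNA entry channel, had 383.1, 375.7, 515.2 and 429.6 CPM in WT monocytes and 615.0, 654.5, 609.1 and 612.6 in WT pre-RPMs, a rise of 0.55 ± 0.14 (adjusted p = 0.0229). It was the gene called in Il1rl1-/-, with a rise of 0.42 ± 0.10 (adjusted p = 0.0179), lost without monocyte 2, pre-RPM 1 or pre-RPM 2. Rps19, the first gene linked to Diamond-Blackfan anemia, had 77.6, 78.2, 88.0 and 77.9 CPM in WT monocytes and 100.4, 129.4, 93.9 and 108.5 in WT pre-RPMs (a rise of 0.43 ± 0.13, adjusted p = 0.0444). Rpl34 rose by 0.46 ± 0.13 (adjusted p = 0.0418).

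Measured from the monocyte, RPMs were lower by less. In WT 49 of 77 genes were lower and 1 higher, against 22.5% and 23.5% of all genes, with a median of −0.46. In Il1rl1-/- 47 of 78 were lower and 4 higher, against 23.5% and 26.0%, with a median of −0.38. The 4 include Rps4l, at 0 to 5 counts in monocytes, which passed the filter on low counts through the RPM libraries alone. Genes with all RPM libraries below all monocyte libraries numbered 49 in WT (20.7% of all genes) and 40 in Il1rl1-/- (22.2%). The lists of lower genes shared 41, 83.7% of the WT list and 87.2% of the other. Without mice 3 and 4 of the RPM groups 26 genes were called in WT and 23 in Il1rl1-/-, with medians of −0.37 and −0.36. Rplp0 fell by 0.90 ± 0.15 in WT (adjusted p = 0.000451) and by 1.03 ± 0.10 in Il1rl1-/- (adjusted p = 4.45e-06). Rpl21 rose by 0.35 in both genotypes (adjusted p = 0.0254 and 0.0156), and Rplp1 rose by 0.49 ± 0.16 in Il1rl1-/- (adjusted p = 0.0212). The WT Rpl21 call was lost with the mouse as a block (adjusted p = 0.0518), with total counts, with every gene of at least 1 count tested and without RPM 3 or 4, both of these or monocyte 4. The Il1rl1-/- call was lost with every gene of at least 1 count tested and without monocyte 2, and the Rplp1 call was lost without Il1rl1-/- RPM 1 or 3 or monocyte 3 or 4.

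The genotypes, compared within each population, gave no called gene in the main fit. In monocytes 0 of 77 genes were called by edgeR, with 1 at an unadjusted p below 0.05 (3.59% of all genes) and a median difference of −0.04, where 0.0614% of all genes were called. In RPMs 0 of 77 were called, with 0 at an unadjusted p below 0.05 (7.27% of all genes) and a median of −0.01, against 0.233% of all genes. In pre-RPMs 0 of 76 were called against 0.552% of all genes, while 29 had an unadjusted p below 0.05 (8.80% of all genes) and 72 of 76 were below 0, with a median of −0.19. DESeq2 called 0 in each. The pre-RPM direction depends on scaling: with total counts the median of the 76 was 0.05 and that of all genes 0.23.

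Rpl11 came nearest to passing between pre-RPMs. It had 78.7, 90.4, 94.7 and 75.7 CPM in pre-RPMs labelled WT and 62.4, 69.5, 65.4 and 63.4 in those labelled Il1rl1-/-, with no overlap. The log2 difference was −0.38 ± 0.10 (unadjusted p = 0.00109 and adjusted p = 0.109, edgeR). With the mouse number as a block in edgeR, Rpl11 passed (adjusted p = 0.0243), as did Rpl5, Rpl22, Rpl34 and Rpl41, all lower under the Il1rl1-/- label. The numbers do not pair mice between genotypes, however. Groups lay apart with the Il1rl1-/- label lower in 5 of the 76 genes, against 2.53% of all genes. NK markers also differed between these groups, with sums of 59.3 to 125 CPM under the WT label and 10.3 to 39.5 under the other; their part was not tested.

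The change from pre-RPM to RPM was also compared between genotypes directly, by an interaction term. Of 78 genes 0 were called by edgeR or DESeq2, against 0.107% of all genes, and 9 had an unadjusted p below 0.05 (7.52% of all genes). The median interaction was 0.18, which means a smaller fall under the Il1rl1-/- label, and 9 genes were below 0. With total counts the median was 0.02 and that of all genes −0.14. The smallest adjusted p was 0.568, for Rps10.

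Other parts of the translation machinery were read from gene lists, from pre-RPM to RPM. Over that step 24.8% of all genes tested were lower and 25.6% higher in WT, and 26.7% and 27.3% in Il1rl1-/-. Calls near these shares are not particular to a list. Ribosomal components that the symbol rule leaves out fell in 3 of 6 tested genes in WT, with a median of −0.49, and in 3 with 1 higher in Il1rl1-/-, with a median of −0.41. Fau, which fuses a ubiquitin-like protein to a small subunit protein, fell by 1.46 in WT (adjusted p = 2.16e-07) and by 1.25 in Il1rl1-/- (adjusted p = 3.65e-08), from 289 ± 27.5 to 109 ± 10.5 CPM in WT (SD, n = 4). Rack1, a scaffold on the small subunit, fell by 0.89 and 0.73 (adjusted p = 6.13e-05 and 1.68e-05).

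Messenger RNAs known to carry a TOP tract but encoding other proteins, a list that includes Fau and Rack1, were lower in 12 of 19 in WT and 14 of 19 in Il1rl1-/-, with 1 and 2 higher and medians of −0.78 and −0.54. The intermediate filament gene Vim changed most, falling by 4.14 and 5.31 (adjusted p = 5.83e-08 and 2.82e-10). Tpt1 fell by 0.79 and 0.68 (adjusted p = 0.000174 and 0.000163). The elongation factors Eef1a1 and Eef2 fell by 0.48 and 0.54 in WT (adjusted p = 0.00622 and 0.00759) and by 0.41 and 0.49 in Il1rl1-/- (adjusted p = 0.00492 and 0.00126).

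The elongation list as a whole was mixed, with 2 higher and 4 lower of 9 in WT and 2 higher and 3 lower in Il1rl1-/-, and medians of 0.06 and 0.03. Its most changed gene, Eef2k, encodes the kinase that inhibits Eef2 and rose by 1.37 in WT (adjusted p = 2.4e-06) and 1.88 in Il1rl1-/- (adjusted p = 2e-07). Initiation factors were higher in 4 and lower in 10 of 28 in WT and higher in 6 and lower in 11 in Il1rl1-/-, with medians of −0.19 and −0.16. The eIF3 subunit genes Eif3e and Eif3f fell by 1.29 and 1.24 in WT (adjusted p = 7.89e-07 and 4.69e-07).

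Genes that build ribosomes did not follow the ribosomal proteins. Of all genes tested, 25.6% were higher and 24.8% lower in WT, and 27.3% and 26.7% in Il1rl1-/-. Biogenesis factors were higher in 21 and lower in 2 of 37 in WT and higher in 14 and lower in 2 in Il1rl1-/-, with medians of 0.54 and 0.31. Wdr12, needed for maturation of the large subunit, rose by 2.68 and 2.63 (adjusted p = 1.09e-08 and 2.74e-09), from 5.48 ± 1.44 to 36.1 ± 2.53 CPM in WT (SD, n = 4). Of the regulators of ribosome production 3 were higher and 5 lower of 23 in WT and 3 higher and 6 lower in Il1rl1-/-, with medians of 0.03 and −0.01. Among them Myc, which drives ribosome biogenesis, rose by 2.75 and 3.18 (adjusted p = 8.57e-08 and 1.8e-07), after a fall by 1.53 and 1.95 from monocyte to pre-RPM (adjusted p = 0.0135 and 0.00263).

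RNA polymerase I genes were higher in 1 and lower in 3 of 15 in WT and higher in 1 and lower in 4 in Il1rl1-/-, with medians of −0.02 and −0.17. Beside this and the next lists, 25.6% of all genes were higher and 24.8% lower in WT, and 27.3% and 26.7% in Il1rl1-/-. Mitochondrial ribosomal proteins, a separate family, were higher in 5 and lower in 12 of 76 in WT and higher in 11 and lower in 9 of 77 in Il1rl1-/-, with medians of 0.04 and 0.11. Host genes of small nucleolar RNAs were higher in 4 and lower in 1 of 10 in WT and higher in 6 and lower in 0 in Il1rl1-/-, with medians of 0.47 and 0.66. Gas5, a host gene whose transcript also starts with a TOP tract, rose by 1.03 and 1.01 (adjusted p = 1.44e-05 and 6.23e-05). Ribosomal protein pseudogenes were lower in 2 of 6 in WT and 4 of 8 in Il1rl1-/-, and 0 were higher. The paralogues of restricted expression, a list that includes Rps4l, gave 1 lower of 4 in WT and 1 higher and 1 lower of 5 in Il1rl1-/-. The higher one was Rps4l, which passed the filter on low counts through the RPM libraries alone. As the plot of list medians shows, the median of all genes tested was at 0.00 in both genotypes.

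**Figure D5:**
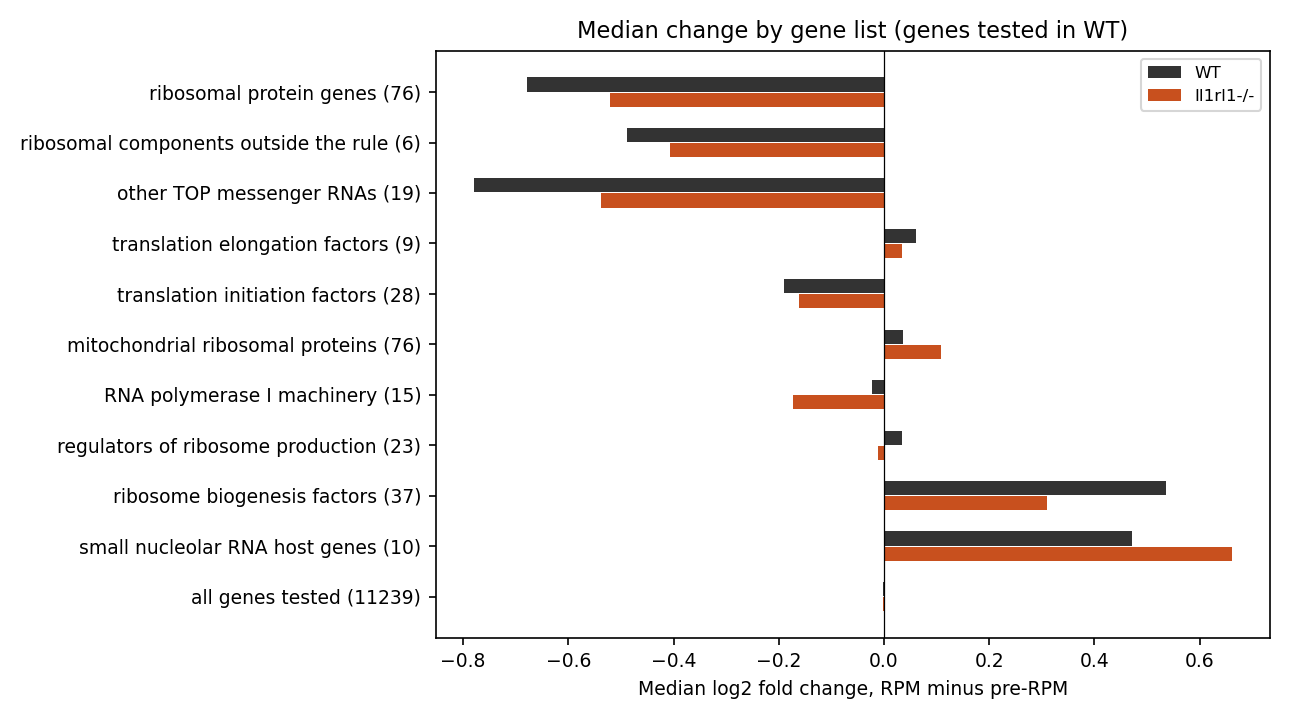
Median log2 fold change from pre-RPM to RPM for the ribosomal protein genes, each companion list and all genes tested, in WT (black) and Il1rl1-/- as labelled (orange), with the number of genes tested in WT in brackets. Ribosomal protein genes (−0.68 and −0.52) and other TOP messenger RNAs (−0.78 and −0.54) lie on the low side, and biogenesis factors (0.54 and 0.31) on the high side.

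Small nucleolar RNAs, which guide modification of ribosomal RNA, sit in the introns of many of these genes. The annotation places 32 of them in 23 of the 78 genes. Of these 17 had 0 counts in every library and 12 had a total of at least 50. Those 17 overlap merged exons of their host genes on the same strand, where the counting leaves fragments out. Their 0 counts therefore do not show that the RNA was absent. From pre-RPM to RPM 1 of 8 tested was higher in WT and 4 of 9 in Il1rl1-/-, and 0 were lower in either. The shares over all genes were 25.6% and 27.3% higher, and 24.8% and 26.7% lower. In Il1rl1-/- Snord32a of Rpl13a rose by 1.31 (adjusted p = 7.77e-05) and Snora21 of Rpl23 by 0.97 (adjusted p = 0.000152). Snora69 of Rpl39, also called there, had 0.475 to 1.36 CPM in pre-RPMs and 2.13 to 5.28 in RPMs. It passed the filter on low counts through the RPM libraries alone, so no fold change is given. In WT Snora69 was too low to be tested, and Snord32a and Snora21 had changes of 0.80 and 0.36 (adjusted p = 0.0958 and 0.265). Rpl23 itself changed by −0.20 in Il1rl1-/- (adjusted p = 0.0774) and −0.12 in WT (adjusted p = 0.406).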

How the data were processed

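Each of the 24 RNA-seq files holds a raw count of fragments per gene, deposited by the authors as featureCounts wrote it. Per the labels and file headers, the libraries were made with a stranded total RNA kit (SMARTer, pico input) and sequenced as paired reads, trimmed with cutadapt, aligned with STAR 2.5.1 and counted over exons of Ensembl GRCm38 release 95 by gene name with featureCounts 1.6.2, on the reverse strand. Fragments mapping to several places or to overlapping genes were not counted, which lowers genes with close copies. The table of submitters' notes names a human build, whereas the file headers name GRCm38.

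The counts were fitted pairwise between groups with edgeR 4.0.16 (R 4.3.3, TMM scaling, filterByExpr, quasi-likelihood test), and p-values were adjusted by Benjamini-Hochberg over all genes tested. The genotype difference in the pre-RPM to RPM change was an interaction term. Standard errors are the log2 fold change over the square root of F, and a call is an adjusted p below 0.05. CPM and SD use TMM-scaled library sizes. Depth was 3562367 to 6559454 counts per library, and counting intervals cover counting error only. Exon lengths for CPM per kb are those in the files. The fit was tested on simulated data for WT RPM against WT pre-RPM (10961 genes): 25% of genes changed by 0.6 and 80% of those changed by 1 on the log2 scale were recovered, with mean estimates of 0.58 and 0.97.

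Within a genotype, a mouse number marks the same mouse by the labels, and the correlation of same-numbered deviations was −0.04 to 0.31 over these comparisons. Between genotypes every such correlation was over 0.1 in monocytes (0.118 to 0.452) and RPMs (0.149 to 0.182), and 0 genes were called with the number as a block there. The members, gene lists and marker lists were chosen with earlier results of these data known. Genes named in the text were the 5 highest and 5 lowest by length-scaled level, the 3 largest called changes in each direction per comparison among groups that did not overlap, members with known roles, paralogue pairs, the most changed gene of each list, and genes named to spell out a count of calls; Rack1, Tpt1, Eef1a1, Eef2, Eif3f, Gas5 and the small nucleolar RNAs were named after their values were seen. Alternatives were DESeq2 1.42.0, RLE and total count scaling, other filters, a single fit to every library, the mouse block, and each library left out; leaving out mice 3 and 4 of the RPM groups was added after seeing the data. Chromatin accessibility was not analysed here. Nothing in the labels says that the mice were handled in separate batches.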

Additional observations from a re-analysis of the deposited data

Results flagged for a closer look

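Groups of 4 libraries were examined for 31 of the members and for the share of counts of the 78 genes, 192 in all. In 13 of them a library's gap to its nearest neighbour passed the 95% critical value of Dixon's test, each time in CPM. Chance flags about 1 in 20 groups, and these are given as values only. In RPMs labelled Il1rl1-/-, mouse 1 stood high for 4 genes: Rpl18 at 49.5 CPM, Rpl3 at 105.6, Rplp2 at 231.9 and Rps27 at 108.3. In pre-RPMs of that label, mouse 3 stood low for Rpl21 at 66.9 and high for Rpl36a at 43.9. Among WT monocytes, mouse 1 was low for Rpl35a at 17.4, and mouse 3 was high for Rps19 at 88.0 and for Rps27a at 199.0. Among WT pre-RPMs, mouse 2 was high for Rps14 at 164.4 and for Rps9 at 654.5, and mouse 4 was low for Rps6 at 433.7. Among WT RPMs, mouse 4 was high for Rps10 at 6.49.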

How the results depend on the processing

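From pre-RPM to RPM the number of genes called stayed within 1.5 times its value under every alternative run, at 59 to 65 in WT and 57 to 64 in Il1rl1-/- with each library left out in turn and, moving farthest, 42 and 46 with total counts (63 in each as reported). Over the same omissions the count was 38 to 50 (WT) and 39 to 52 (Il1rl1-/-) from monocyte to RPM, 1 to 13 and 0 to 2 from monocyte to pre-RPM, and 0 to 0 in each of the 4 genotype comparisons. Without mice 3 and 4 of the RPM groups it was 26 and 23 from monocyte to RPM; fewer libraries entered that fit. From monocyte to pre-RPM in WT it was 0 with total counts and 14 when the 24 libraries shared a single fit. The block by mouse gave 2 there in Il1rl1-/- and changed no other count within a genotype by over 1.5 times; over those 6 comparisons 9 calls were lost with it and 6 gained, and 0 turned around. Between pre-RPMs the numbers do not pair mice (same-number correlations 0.0452 to 0.155); a replicate block gave 5 genes lower under the Il1rl1-/- label, and the cause was not tested. Total counts put the median of all genes anywhere from −0.36 to 0.23 on the log2 scale.

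The mean share of counts held by the 78 genes in RPMs, as a percentage of that in pre-RPMs, was 68.3 to 78 in WT and 70.2 to 80.4 in Il1rl1-/- with a library left out, and 62.2 in WT without the 10 most counted other genes. For pre-RPMs as a percentage of monocytes it was 88.1 to 96.3 and 96.0 to 109.3, and 110.4 in WT without those 10 genes. The 90th over the 10th percentile of level was 13.8 to 14.2 with a library left out, 9.98 without division by length and 9.43 with the length of 1 transcript. For single named genes, 5061 alternative values kept their side of the threshold, 131 lost the call and 43 gained it. Of the values called in the main fit or the alternative, 0 turned around. Where neither fit called the gene, a change of direction was not counted. At this depth 3 counts are 0.457 to 0.842 CPM, which limits Rps4l, Rps10 and Rpl24.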
